A study of Mus musculus with 6 samples.

Results

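Transforming growth factor beta (TGF-beta) is a secreted cytokine that microglia, the resident macrophages of the brain, both make and depend on. Transcripts of 9 of its signalling genes were read out here in hippocampal microglia sorted by their content of neutral lipid. The 9 genes were chosen by symbol from the 16179 rows of the deposited table: the ligand Tgfb1, its activator Nrros, the receptors Tgfbr1 and Tgfbr2, the signal transducers Smad2, Smad3 and Smad4, the inhibitory Smad7, and the co-repressor Ski. All 9 were found, and all 9 passed the filter on low values.

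The mice were 10-month-old males of the strain B6.129S4(FVB)-Grntm1.1Far/Mmja, which lack progranulin, a secreted protein that acts in lysosomes. Hippocampi of 2 mice were pooled for each library, and about 10000 live cells with CD11b and little CD45 on their surface were sorted. BODIPY, a dye for neutral lipid, split them into a lipid droplet-low fraction (BODIPY-low, 3 libraries) and a lipid droplet-high fraction (BODIPY-high, 3 libraries). Both fractions carry the deletion, and libraries of wild-type mice were not analysed here, so droplet contents are compared within knockout mice. Where 3 values of a fraction are listed, they belong to its replicates 1, 2 and 3 in that order.

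TGF-beta is secreted in a latent form, wrapped in its own propeptide and tethered to an anchor protein. On microglia that anchor is the product of Nrros, and the integrin alpha-v beta-8, often on a neighbouring cell, releases the active cytokine. Active TGF-beta joins the type II receptor Tgfbr2 to the type I receptor Tgfbr1, which phosphorylates Smad2 and Smad3. These enter the nucleus with Smad4. Smad7 holds the response in check at the receptor, and the proteins Ski and Skil do so in the nucleus. In microglia the pathway is known for maintaining the genes that set these cells apart from other macrophages.

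Each library held between 24982215 and 34899425 recovered reads, and the members had between 1477 and 111660 reads in any library. Grn, the targeted gene, had 416 to 990.1 normalised reads in BODIPY-low and 468 to 1614 in BODIPY-high libraries. Where along the gene these lie was not analysed here, so they do not check the deletion. All 12 microglia markers were tested, and their summed share of normalised reads (Csf1r highest) was 5.99% to 6.73% in BODIPY-low and 5.45% to 5.79% in BODIPY-high libraries. Of these 12 markers 2 fell and 0 rose in BODIPY-high libraries. Of all 12821 tested genes, 3.52% fell and 9.79% rose (5.57% and 6.69% of those with a mean of at least 1000, as all 12 have). Markers of other cells also differed between the groups. All 10 choroid plexus and ependyma markers rose (0.0136% to 0.0651% of reads in BODIPY-low, 0.535% to 0.955% in BODIPY-high), led by Enpp2 and Ttr. Of 9 tested neutrophil markers 8 fell (0.113% to 0.290% against 0.000722% to 0.00846%), led by Ngp and Ltf, and 4 of 6 tested monocyte markers fell, among them Chil3 (Vcan, another of the list, had 0 reads in BODIPY-low libraries). Border macrophage markers (Mrc1 and F13a1 highest) held at most 0.00866% of reads in any library, and 1 of 8 tested rose. Of 8 endothelial and mural markers 1 rose, Slco1a4, with Pecam1 the highest of the list and at most 0.00444% of reads. Neuron and macroglia markers (Slc1a3 and Mbp highest) reached at most 0.0438%, and 3 of 11 rose. No T or NK cell marker reached the filter (Klrb1c and Nkg7 were the highest), and Nkg7 had 0 reads in BODIPY-high libraries. In each of these 8 marker lists the exact two-sided permutation test of the summed share gave p = 0.1, the smallest possible with 3 libraries against 3.

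**Figure D1:**
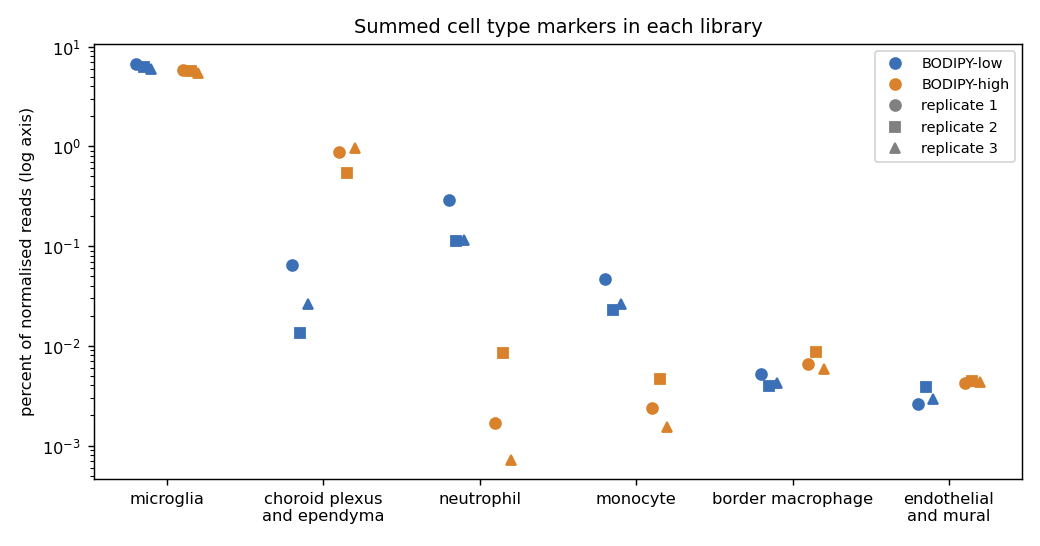
Summed markers of 6 cell types as a percent of normalised reads (log axis) in each library, by group (colour) and replicate (shape). Microglia markers lie between 5.45% and 6.73% in all libraries, while choroid plexus markers are higher and neutrophil markers lower in all 3 BODIPY-high libraries.

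Tgfbr1, Nrros and Smad7 fell in BODIPY-high libraries, and the other 6 members did not pass the test. The 3 falls were 0.38, 0.43 and 0.48 on the log2 scale, so that BODIPY-high levels were 76.9%, 74.4% and 71.8% of BODIPY-low levels. Members called lower thus numbered 3 of 9, beside a background of 3.52% of the 12821 tested genes (13.3% were called in either direction). Genes with a mean of at least 1000 normalised reads, which all 9 members exceed, were called lower in 5.57% of cases. No member was called higher (9.79% of tested genes were, and 6.69% of the abundant ones). The log2 fold change was below 0 in 9 of 9 members (6 of 9 with the marker scaling given below), against 51.9% of all tested genes and 56.0% of those with a mean of at least 1000. The members' median was -0.23, against -0.01 over all tested genes and -0.03 over the abundant ones. In these bulk libraries, fewer microglia among the sorted cells and less RNA of a gene per microglial cell cannot be told apart. Choroid plexus and ependyma markers rose in the same libraries, to between 0.535% and 0.955% of reads. Neutrophil and monocyte markers, which fell there, held at most 0.290% and 0.0463%. These shares are sums over a few marker genes and not the share of RNA from those cells. The part of these cells in the members' falls was not tested. The test was limma on log2(value + 1) across all genes with Benjamini-Hochberg adjustment, and a gene was called at an adjusted p below 0.05. When each library was scaled to its summed microglia markers instead, 0 of 9 members were called, 6 were below 0 and the median was -0.07, while the median of all tested genes moved from -0.01 to 0.14. With 1 library left out, 0 to 2 members were called: none without BODIPY-low replicate 2, BODIPY-low replicate 3 or BODIPY-high replicate 3, and Tgfbr1 alone without BODIPY-high replicate 1.

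**Figure D2:**
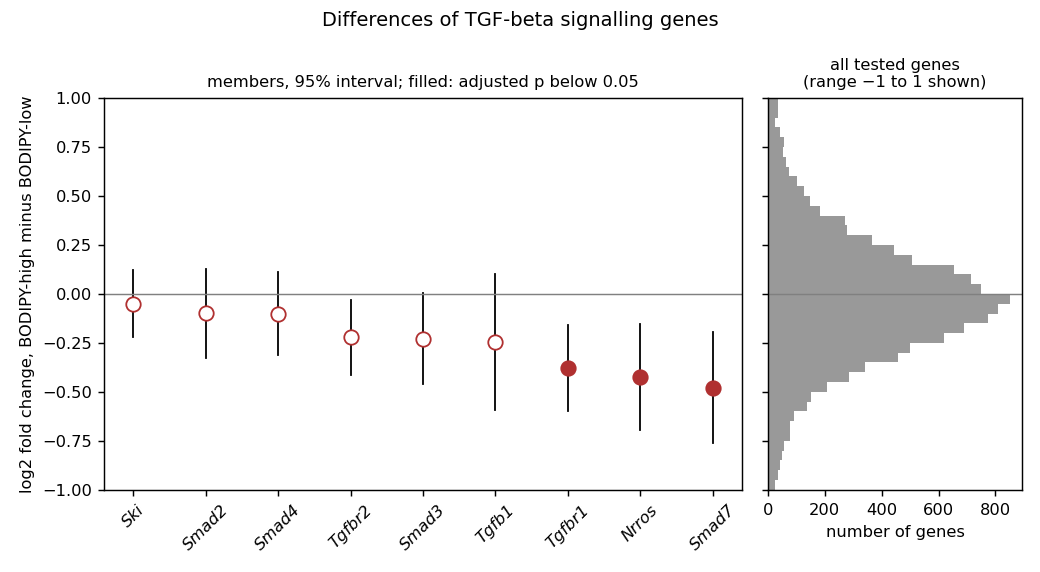
Left, log2 fold change of the 9 members (BODIPY-high minus BODIPY-low) with 95% intervals from limma, filled where the adjusted p was below 0.05; right, the number of tested genes at each fold change between -1 and 1. All 9 members lie below 0, from -0.05 for Ski to -0.48 for Smad7, whereas Smad2, Smad4 and Ski lie above 0 after scaling to microglia markers.

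Tgfb1, the ligand, did not pass the test. It had 3606, 4692 and 4716 normalised reads in the BODIPY-low fraction, and 2912, 4531 and 3619 in the BODIPY-high fraction. The groups overlapped, and replicate 1 was the lowest library of each. The log2 fold change was -0.25 (SE 0.16, 95% interval -0.59 to 0.10, limma adjusted p = 0.355). The gene lies on chromosome 7 of GRCm38, from 25687002 to 25705077 on the plus strand.

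Nrros, the membrane anchor of latent TGF-beta on microglia, fell in BODIPY-high libraries. It had 13438, 16159 and 14768 normalised reads in the BODIPY-low fraction, against 9135, 12943 and 11188 in the BODIPY-high fraction. The groups did not overlap, but BODIPY-high replicate 2 came close to BODIPY-low replicate 1. The mean went from 14788 ± 1361 to 11089 ± 1906 (SD, n = 3 each). The limma estimate on the log2 scale was -0.43 (SE 0.12, adjusted p = 0.0429). Nrros lies on chromosome 16 from 32142785 to 32165594 on the minus strand. Its adjusted p lay above 0.05 in 3 settings that kept all 6 libraries, the marker scaling apart: it was 0.058 with edgeR, 0.0663 after quantile normalization and 0.0521 with a mean of at least 100 required. It also passed only without BODIPY-low replicate 1 or BODIPY-high replicate 2 when 1 library was left out (up to 0.155 otherwise).

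Tgfbr1, the type I receptor kinase, was the most abundant member and also fell. Its normalised reads were 103748, 100929 and 103613 in the BODIPY-low fraction, a narrow range. In the BODIPY-high fraction they came to 89799, 69175 and 79422, all below the BODIPY-low libraries and more widely spread. The means were 102764 ± 1590 and 79466 ± 10312 (SD, n = 3 each). The limma estimate on the log2 scale was -0.38 (SE 0.10, adjusted p = 0.0297). After dropping single libraries, Tgfbr1 passed only without BODIPY-high replicate 1 (limma adjusted p up to 0.102 otherwise), and it passed in each of the 11 other settings that kept all 6 libraries, apart from the marker scaling. It lies on chromosome 4 from 47353222 to 47414931 on the plus strand.

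Tgfbr2, the type II receptor that binds the ligand first, missed the threshold. It had 32376, 35720 and 38184 normalised reads in the BODIPY-low fraction, and 28430, 31221 and 31359 in the BODIPY-high fraction. The groups did not overlap, which was the case, in the same direction, for 4 of 9 members and for 13.4% of all tested genes. Among genes with a mean of at least 1000 the share was 17.3%. The log2 fold change was -0.22 (SE 0.09, 95% interval -0.41 to -0.03, limma adjusted p = 0.127). Tgfbr2 lies on chromosome 9 from 116084293 to 116175360 on the minus strand.

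**Figure D3:**
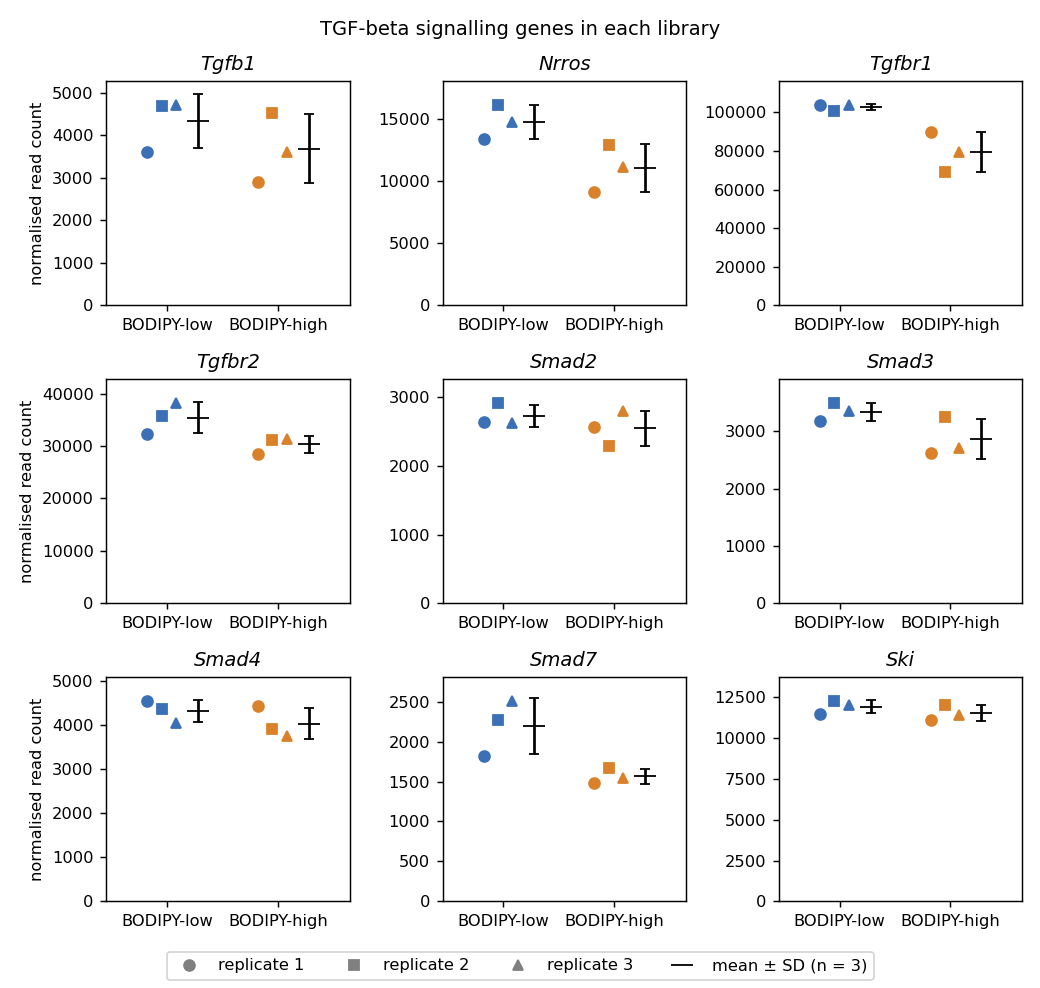
Normalised read count of the 9 members (each panel from 0) in every BODIPY-low and BODIPY-high library, by replicate (shape), with the mean and SD beside them. The groups do not overlap for Nrros, Tgfbr1, Tgfbr2 and Smad7, and they overlap for the other members.

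The promoters of the 2 called members with a sequence at hand, Tgfbr1 and Nrros, are shown because these genes fell in the same libraries, and that of Tgfb2, another ligand, because it moved the other way. Each window runs 5′ to 3′ from 250 bases before to 50 bases after the RefSeq start (GRCm38.p6): chr4:47352972-47353271 on the plus strand for Tgfbr1, chr16:32165545-32165844 on the minus strand for Nrros, and chr1:186705940-186706239 on the minus strand for Tgfb2. Capitals mark CAGAC, the core sequence bound by Smad proteins, and GAGGAA, a core of sites for the macrophage factor PU.1, on either strand (GTCTG and TTCCTC in reverse).
Tgfbr1: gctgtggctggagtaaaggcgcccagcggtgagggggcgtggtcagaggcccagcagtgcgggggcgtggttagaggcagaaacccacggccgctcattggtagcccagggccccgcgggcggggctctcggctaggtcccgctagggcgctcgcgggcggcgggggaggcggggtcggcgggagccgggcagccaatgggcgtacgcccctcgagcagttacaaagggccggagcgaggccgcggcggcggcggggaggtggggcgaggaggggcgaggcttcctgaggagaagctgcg
Nrros: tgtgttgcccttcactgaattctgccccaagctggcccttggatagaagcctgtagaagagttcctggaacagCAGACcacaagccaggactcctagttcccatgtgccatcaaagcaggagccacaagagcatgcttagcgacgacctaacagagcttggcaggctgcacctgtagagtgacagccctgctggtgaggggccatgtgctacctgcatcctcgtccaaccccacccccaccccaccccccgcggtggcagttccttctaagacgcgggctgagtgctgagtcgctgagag
Tgfb2: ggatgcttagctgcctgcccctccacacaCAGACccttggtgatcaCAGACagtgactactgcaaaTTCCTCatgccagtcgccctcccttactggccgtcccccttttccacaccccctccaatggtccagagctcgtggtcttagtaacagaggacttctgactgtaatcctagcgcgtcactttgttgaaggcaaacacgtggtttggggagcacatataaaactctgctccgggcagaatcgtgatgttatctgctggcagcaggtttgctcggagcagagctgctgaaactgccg
CAGAC was found 1 time in the window of Nrros, 2 times in that of Tgfb2 and 0 times in this window of Tgfbr1, and GAGGAA 1 time in Tgfb2 and 0 times in the others. Of 32851 promoters of this length in the RefSeq table, 49.6% held CAGAC and 28.3% held GAGGAA on either strand. RefSeq gives a second start of Tgfbr1 inside the gene, whose window held 1 match to each, as did that of Tgfbr2. The windows of Tgfb1, Smad3 and Ski held 0 matches to either. Such matches describe letters and are not shown to be bound.

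The transducers Smad2, Smad3 and Smad4 were not called. Smad3 came closest, with 3175, 3490 and 3343 normalised reads in the BODIPY-low fraction and 2616, 3255 and 2701 in the BODIPY-high fraction. BODIPY-high replicate 2 reached into the range of the BODIPY-low libraries, so the groups overlapped. The log2 fold change of Smad3 was -0.23 (SE 0.11, 95% interval -0.46 to 0.00, limma adjusted p = 0.189).

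Smad2 had 2640, 2915 and 2623 normalised reads in the BODIPY-low fraction, then 2561, 2290 and 2798 in the BODIPY-high fraction. Smad4, the partner shared with the bone morphogenetic protein (BMP) branch of the family, had 4549, 4371 and 4039 in the BODIPY-low fraction, then 4436, 3906 and 3760 in the BODIPY-high fraction. For both genes the groups overlapped. Their log2 fold changes were -0.10 each (SE 0.10 each), with 95% intervals of -0.33 to 0.13 for Smad2 and -0.31 to 0.11 for Smad4 (limma adjusted p = 0.592 and 0.556). Smad3 lies on chromosome 9 (63646767 to 63757994), and Smad2 (76241580 to 76310963) and Smad4 (73639009 to 73703780) lie on chromosome 18.

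Smad7, an inhibitor of the receptor that TGF-beta itself is known to induce, had the largest fall of the 9 members. It had 1817, 2264 and 2508 normalised reads in the BODIPY-low fraction, and 1481, 1673 and 1540 in the BODIPY-high fraction. All BODIPY-high libraries lay below all BODIPY-low ones, which were the more widely spread. The mean went from 2196 ± 351 to 1565 ± 98.3 (SD, n = 3 each). The limma estimate on the log2 scale was -0.48 (SE 0.13, adjusted p = 0.0316). When single libraries were dropped, Smad7 passed only without BODIPY-low replicate 1 or BODIPY-high replicate 2 (limma adjusted p up to 0.151 otherwise). It lies on chromosome 18 from 75367529 to 75395935.

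Ski, a nuclear co-repressor of Smad complexes, had the smallest difference. Its normalised reads were 11453, 12256 and 12016 in the BODIPY-low fraction, then 11082, 12027 and 11401 in the BODIPY-high fraction. The groups overlapped, and the log2 fold change was -0.05 (SE 0.08, 95% interval -0.22 to 0.12, limma adjusted p = 0.731). Ski lies on chromosome 4 from 155154075 to 155222592. No exon of the 9 members overlaps an exon of another gene in GENCODE M21.

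The members did not all reach their lowest values in the same BODIPY-high library. Against the BODIPY-low mean on the log2(value + 1) scale, Nrros stood at -0.69, -0.19 and -0.40 in the BODIPY-high fraction. Tgfbr1 stood at -0.19, -0.57 and -0.37 in the same order, so the library with the lowest Nrros had the highest Tgfbr1 of its group. Smad7 was the most even of the 3 called members, at -0.56, -0.38 and -0.50. Over all 9 members the median was -0.31, -0.18 and -0.25 in the BODIPY-high fraction, and 8, 7 and 8 members lay below the BODIPY-low mean. In the BODIPY-low fraction itself 7, 1 and 2 members lay below that mean, so BODIPY-low replicate 1 had as many as BODIPY-high replicate 2, with a median of -0.07.

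Per kilobase of exon, Tgfbr1 stood well above the other members in every library. Its level was 15728 ± 243 normalised reads per kb in the BODIPY-low fraction, against 12162 ± 1578 with high lipid (SD, n = 3 each). Tgfbr2 followed at 4327 ± 356 and 3705 ± 202, then Nrros at 3540.4 ± 326 and 2655 ± 456 and Ski at 2141 ± 74.1 and 2068 ± 86.4. The remaining order was Smad4 (1164 ± 69.6 in BODIPY-low), Tgfb1 (860.4 ± 126), Smad3 (602 ± 28.4), Smad7 (486 ± 77.5) and Smad2 (310.5 ± 18.7). The order of the means was the same in both groups. Neighbours in it did not overlap within a group, except Tgfb1 and Smad3 in BODIPY-high libraries (578 to 899 and 472 to 587 normalised reads per kb). Lengths are those of all annotated exons joined, which can exceed the transcript in use.

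**Figure D4:**
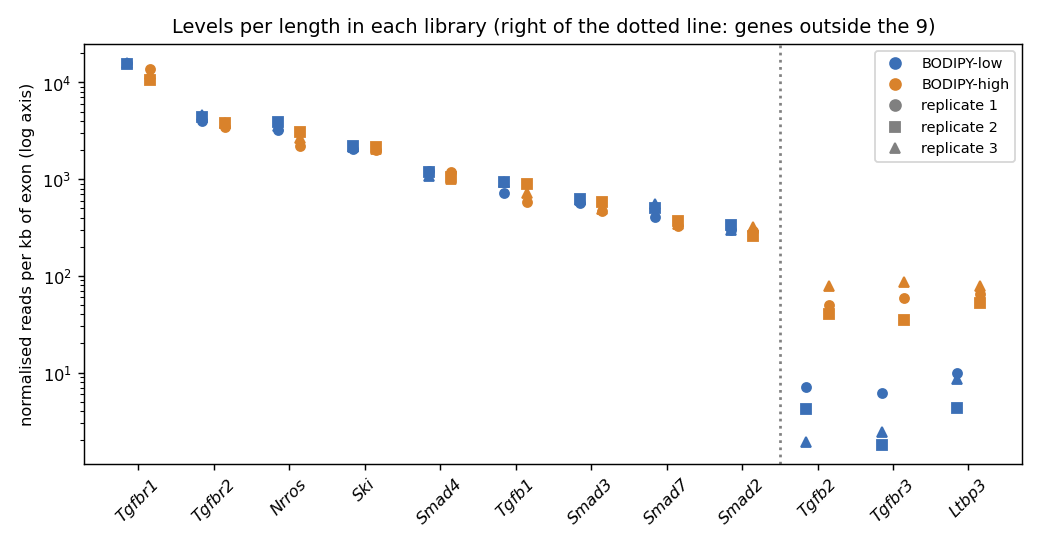
Normalised reads per kb of exon (log axis) in each library for the 9 members, in order of their BODIPY-low mean, and for Tgfb2, Tgfbr3 and Ltbp3. Tgfbr1 is highest in every library, and Tgfb2, Tgfbr3 and Ltbp3 lie below 90 in every library.

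Of 12 tested genes for other ligands and parts of the latent complex 3 rose and 1 fell, beside 9.79% and 3.52% of all tested genes, with a median log2 fold change of 0.24 (-0.01 over all tested genes). Itgb8, Tgfb3 and Itgb6 had BODIPY-low means of 6.73, 0 and 0 normalised reads, so they passed the filter (mean 10 or more) only through BODIPY-high libraries. The median includes all of them and the rises include Itgb8, so neither is read as a difference of the list. Tgfb2 had 41.2, 24.5 and 11.1 normalised reads in the BODIPY-low fraction, and 291, 234 and 458 in the BODIPY-high fraction (limma estimate on the log2 scale 3.75, SE 0.45, adjusted p = 3.62e-04). Ltbp3, which binds latent TGF-beta to matrix, rose from 68.9 ± 26.4 to 595 ± 121 (SD, n = 3 each, log2 fold change 3.15, SE 0.31, adjusted p = 1.14e-04). Itgb8, the beta-8 integrin chain that activates latent TGF-beta, rose from 6.73 ± 7.53 to 190 ± 56.4 (5.31 on the log2 scale, SE 0.85, limma adjusted p = 0.00218). The size of this rise is uncertain: leaving out BODIPY-low replicate 1 gave 6.19, leaving out replicate 3 of that fraction gave 4.201, and a pseudocount of 5 gave 4.22. Tgfb2, Ltbp3 and Itgb8 were low beside the members: even in BODIPY-high libraries Tgfb2 reached 56.6 ± 20.1 normalised reads per kb, against 731 ± 161 for Tgfb1. Markers of choroid plexus and ependyma moved with them by a median of 4.66 (10 of 10 called, the lowest 4.39), and their part in these rises was not tested. Among the genes outside the members that are named here for their change or role, exons of Ltbp3, Tgfb2, Tgfb3, Itgav, Eng, Cdkn1a, Jun, Gas6, Cx3cr1 and P2ry12 overlap annotated genes on the other strand. Those of Tgfbr3 and Smad5 overlap a gene on their own strand, so reads of these 12 genes are uncertain.

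Tgfb3 had 0 reads in all BODIPY-low libraries and 2.83, 9.06 and 48.5 normalised reads in the BODIPY-high fraction. With reads pooled over each group and a floor of 3 reads, it was at least 21.5-fold higher in BODIPY-high libraries, a bound that does not hold for each library. BODIPY-high replicate 3 held 61 of the 72 reads, and without it the bound was 5.36-fold (13.6-fold to 31.0-fold without any other library). Limma did not call it (adjusted p = 0.0836), while edgeR (0.0343) and DESeq2 (0.00246) did. Itgb6, another chain of TGF-beta-activating integrins, also had 0 reads in BODIPY-low libraries and had none in BODIPY-high replicate 2 (limma adjusted p = 0.184, edgeR 0.0484). Tgfb3 and Itgb6 passed the filter only through BODIPY-high libraries, so these calls are not read as support for a rise. The fall was that of Itgb3, the beta-3 chain, from 4684 ± 472 to 3188 ± 797 (SD, n = 3 each). The limma estimate on the log2 scale was -0.58 (SE 0.16, adjusted p = 0.0321). Its partner Itgav, the alpha-v chain, had a log2 fold change of -0.31 (limma adjusted p = 0.0795, DESeq2 0.0415), and Itgb5, the abundant beta-5 chain, stood at 122000 ± 3378 and 121815 ± 1286 (0.00, 95% interval -0.17 to 0.17). Itgb3 passed only without BODIPY-high replicate 1 when 1 library was left out (limma adjusted p up to 0.120 otherwise). No deposited row carried the symbol Ltbp1 or Ltbp2, and Lrrc32, the anchor on other cells, was below the filter.

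Among 10 tested receptors of the wider family, 1 rose and 1 fell, a share close to that of all tested genes for the rise (9.79%, and 3.52% for falls), with a median of -0.16. Tgfbr3, or betaglycan, a co-receptor that presents TGF-beta to the signalling receptors, had 40.02, 11.7 and 15.8 normalised reads in the BODIPY-low fraction, then 383, 227 and 569 in the BODIPY-high fraction. The fractions did not overlap (limma estimate on the log2 scale 4.16, SE 0.47, adjusted p = 2.67e-04), and the same held for all 10 choroid plexus markers, whose part in this was not tested. Acvr1, a type I receptor for BMPs and activins, fell from 1339 ± 101 to 979.8 ± 110 (SD, n = 3 each, log2 fold change -0.45, SE 0.13, adjusted p = 0.0355). When 1 library was left out, Acvr1 passed only without BODIPY-low replicate 1 or BODIPY-high replicate 2 (limma adjusted p up to 0.161 otherwise). Eng, or endoglin, an accessory receptor, had a log2 fold change of -0.26 (adjusted p = 0.308).

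Of 26 other Smads and Smad regulators 1 fell and 0 rose, with a median of -0.10. The share that fell is close to the 3.52% of all tested genes, of which 9.79% rose. The fall was that of Skil, which encodes the co-repressor SnoN and is known to be induced by TGF-beta. Skil had 7741, 9418 and 9749.8 normalised reads in the BODIPY-low fraction, then 7336, 6087 and 6834 in the BODIPY-high fraction, without overlap (limma estimate on the log2 scale -0.41, SE 0.11, adjusted p = 0.0307). Among fits without 1 library it passed only without replicate 1 of either group (adjusted p up to 0.142 otherwise). The BMP-branch transducers Smad1 and Smad5 had log2 fold changes of 0.01 and -0.36 (adjusted p = 0.957 and 0.0671), and limma called neither (DESeq2 called Smad5, 0.0339).

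Of 17 tested genes known to respond to TGF-beta 2 rose and 2 fell, beside 9.79% and 3.52% of all tested genes, with a median of -0.31 (-0.01 over all tested genes), and 13 did not pass. Besides Skil, counted again here, Cdkn1a, which encodes the cell cycle inhibitor p21, fell from 1317 ± 60.3 to 875 ± 200 (SD, n = 3 each). The limma estimate on the log2 scale was -0.62 (SE 0.16, adjusted p = 0.0308). Cdkn1a passed only without BODIPY-high replicate 1 or 2 when 1 library was left out (adjusted p up to 0.120 otherwise). Id1 and Id3, which are best known as targets of the BMP branch, rose from 27.1 ± 7.02 to 126 ± 26.1 and from 46.4 ± 4.92 to 291 ± 97.7 (log2 fold changes 2.18 and 2.57, adjusted p = 0.00284 and 3.01e-04). Choroid plexus markers moved with them (median 4.66, as above), and their part in this was not tested. Pmepa1, a classical target, was not called (log2 fold change 0.07, limma adjusted p = 0.705).

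Of 23 microglial genes reported to need TGF-beta 6 fell and 1 rose, against 3.52% and 9.79% of all tested genes, with a median of -0.19. All of them had a mean of at least 1000 normalised reads, and of all such genes 5.57% fell and 6.69% rose. The largest falls were those of Jun (log2 fold change -0.53, limma adjusted p = 0.0321), Gpr34 (-0.41, 0.00623), Cx3cr1 (-0.39, 0.0399) and Rgs2 (-0.29, 0.0325). Jun encodes a subunit of the transcription factor AP-1, and Rgs2 a regulator of G protein signalling. Jun had 35977, 50808 and 45035 normalised reads in the BODIPY-low fraction, then 24846, 32675 and 33773 in the BODIPY-high fraction, without overlap. Gas6, a ligand of receptors for apoptotic cells, rose from 7050 ± 654 to 9606 ± 857 (SD, n = 3 each). The limma estimate on the log2 scale was 0.45 (SE 0.10, adjusted p = 0.0132). Sall1, a transcription factor of microglial identity, and the surface genes Tmem119 and P2ry12 were not called (-0.21, -0.27 and -0.19, limma adjusted p = 0.117, 0.0667 and 0.240). Tmem119 was called lower by edgeR (adjusted p = 0.0435) and DESeq2 (0.00986), and by limma with scaling to total reads (0.0376), quantile normalization (0.0336) or robust variance (0.0271). With 1 library left out, Gpr34 was called each time, whereas Cx3cr1 and Rgs2 passed only without BODIPY-high replicate 1 (up to 0.173 and 0.129 otherwise), Jun only without BODIPY-low replicate 1 or BODIPY-high replicate 2 (up to 0.118), and Gas6 failed without BODIPY-low replicate 3 or BODIPY-high replicate 3 (0.0691 and 0.0708). Of this list, 9 genes are also among the 12 microglia markers, and with scaling to those markers 0 of the 23 genes were called lower.

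**Figure D5:**
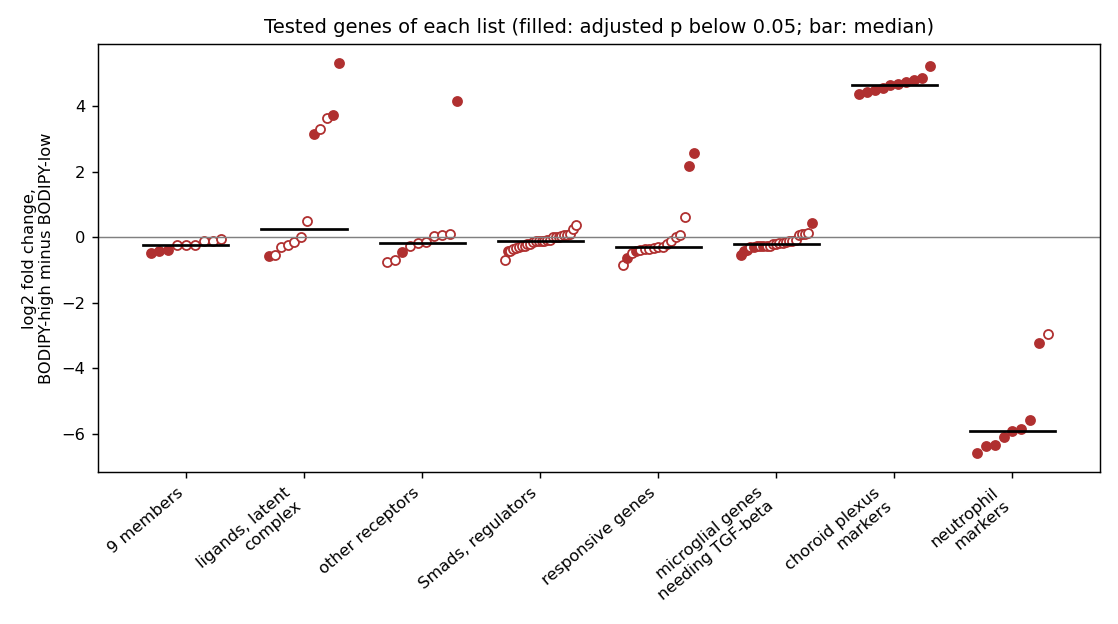
Log2 fold change (BODIPY-high minus BODIPY-low) of each tested gene in the members, 5 lists of the pathway, and the choroid plexus and neutrophil markers, filled where the adjusted p was below 0.05, with the median as a bar. Members lie between -0.48 and -0.05, while Itgb8, Tgfbr3, Tgfb2 and Ltbp3 lie between 3.15 and 5.31, beside choroid plexus markers at 4.39 to 5.23.

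Genes whose profile over the 6 libraries was closest to that of a member were sought among 6713 genes with a mean of at least 500 normalised reads. Closeness was the root mean square difference between log2(value + 1) profiles, each centred on its own mean, and it is given as a description of 6 libraries. For Tgfbr1 the 3 closest were Ccdc47 (0.036), Hspa13 (0.046) and Dock4 (0.048). For Nrros they were Tnrc18 (0.046), Slc12a9 (0.057) and Hlx (0.061), and for Tgfbr2 Lpcat1 (0.023), 5031414D18Rik (0.036) and Zmiz1 (0.038). For Tgfb1 they were Upk1b (0.028), Eng (0.037), the accessory receptor named above, and Epn2 (0.053). Among the other 8 members, a far smaller pool, the closest to Tgfb1 was Nrros (0.12), to Tgfbr1 Smad4 (0.17), to Tgfbr2 Smad3 (0.097), and to Smad7 Nrros (0.14).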

How the data were processed

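Per the series' design text, RNA of sorted microglia (integrity number above 9) was made into SmartSeq v4 cDNA and Nextera XT libraries and read over 100 bases at both ends. Per the submitters' processing notes, FastQC 0.11.4, STAR 2.5.3a and DESeq2 were used. The design text has STAR count the reads and names the build mm10 (the notes also list mm9), and the gene annotation is not given in the sources used here. The kits do not mark strand, so reads of genes that overlap on opposite strands are not separable.

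What the authors deposited is a signal, namely reads per gene divided by 1 size factor per library. At a tolerance of 0.01 read, 100% of values came back as whole reads, and size factors recomputed from them differed by at most 5.11e-10 in relative terms. The main test was limma 3.58.1 in R 4.3.3, two-sided, with trended variance and no block, on log2(value + 1). It covered 12821 genes (mean 10 or more), and the pseudocount of 1 shrinks changes of low genes. EdgeR 4.0.16 (quasi-likelihood) and DESeq2 1.42.0 on the recovered reads were alternatives, beside other pseudocounts, filters and scalings, robust variance, a replicate block and leaving out each library. Scaling to microglia markers was added after the data were seen. The code was tested on simulated counts.

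Of 16177 symbols, 96.0% matched GENCODE M21 (GRCm38, that is, mm10), the source of coordinates and exon lengths, and promoters came from RefSeq. The labels do not say whether low and high libraries with the same number share a pool of mice, and the main fit ignores any such pairing. The p-values speak only of the spread among these 6 libraries, which may be technical. Members, lists and tests were chosen with earlier results of these data known. The text names every called gene of a pathway list with 6 or fewer, otherwise the 4 largest changes in each direction, and genes that the background needs. Of each marker list the 2 genes with the highest mean are named (for monocytes Chil3 and F13a1, the second also a border macrophage marker), and a few items are not reported here.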

Additional observations from a re-analysis of the deposited data

How the results depend on the processing

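All 9 log2 fold changes of the members were below 0 in each of 17 other settings, which leave out the marker scaling. Other filters, robust variance and the replicate block leave a fold change as it is, so they could not alter a direction. Other pseudocounts hardly move genes of this abundance (members' median -0.229 in all of these, as in the main fit). In the 11 of the 17 settings that kept all 6 libraries, 2 to 4 members were called lower. With 1 library left out, 0 to 2 members were called, and the genes called over the whole table numbered 689 to 1295 higher and 151 to 523 lower (main 1255 and 451, 73.6% higher; 85.6% higher without BODIPY-low replicate 3). A mean of at least 100 left 651 higher. Scaling to the summed microglia markers, chosen after seeing the data, left 0 members and 145 genes called lower (92.4% of calls higher) and turned Smad2 (0.058), Smad4 (0.057), Ski (0.11) and Itgb5 (0.16) above 0. Leaving out single libraries, Itgb5 ranged from -0.023 to 0.017 and Pmepa1 from -0.020 to 0.12. The cause was not tested.

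With the replicate number as a block, 760 genes and 4 members were called lower, Tgfbr2 (limma adjusted p = 0.0275) being added, as were Tmem119 (0.00899), Itgav (0.0165), Smad5 (0.0375) and Sall1 (0.0465). Calls lower in the 5 pathway lists, in the order of the report, were 1, 1, 1, 2 and 6 in the main fit. They were 3, 2, 3, 5 and 12 with the block, 3, 1, 4, 6 and 8 with DESeq2 and 0 in each with the marker scaling. Over all 12821 tested genes, calls lower numbered 451 in the main fit, 760 with the block, 671 with DESeq2 and 145 with the marker scaling. Without a filter, 3 microglial genes reported to need TGF-beta were called lower, beside 435 of 16179 genes. EdgeR called 5 ligand and latent complex genes higher, against 3, with 1215 genes called higher over the whole table. Tgfb3 and Itgb6 were the added ones, and both passed the filter only through BODIPY-high libraries. Deviations from the group means correlated across genes at 0.11, 0.14 and 0.073 for libraries with the same number, and each library correlated best with its own number, a hint from the data and not from the design. No member had fewer than 1477 reads in any library, whereas Tgfb3 and Itgb6 had 0 in BODIPY-low libraries, where depth leaves only a bound on the fold.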

Other observations

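Ratios between genes within a library do not depend on the size factor of that library. Per length, Smad7 stood at 0.701, 0.795 and 0.920 of Smad3 in the BODIPY-low fraction, and at 0.694, 0.630 and 0.699 in the BODIPY-high fraction. The groups did not overlap, but BODIPY-low replicate 1 lay close to the BODIPY-high libraries. The co-repressor Skil stood at 0.388, 0.441 and 0.466 of Ski in BODIPY-low and at 0.380, 0.290 and 0.344 in the BODIPY-high fraction, again without overlap and with BODIPY-low replicate 1 nearest.

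Receptor and ligand ratios overlapped between the groups. Tgfbr1 exceeded Tgfbr2 per length 3.65 ± 0.322-fold in BODIPY-low and 3.30 ± 0.601-fold in BODIPY-high libraries (SD, n = 3 each). Nrros exceeded Tgfb1 4.15 ± 0.359-fold and 3.66 ± 0.181-fold, and Smad3 exceeded Smad2 1.94 ± 0.0684-fold and 1.80 ± 0.394-fold. The ratios were chosen after values were seen and were not tested.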
